A study of Homo sapiens with 15 samples.

Results

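The let-7 family guide strands examined here are the 9 mature miRNAs hsa-let-7a-5p, hsa-let-7b-5p, hsa-let-7c-5p, hsa-let-7d-5p, hsa-let-7e-5p, hsa-let-7f-5p, hsa-let-7g-5p, hsa-let-7i-5p and hsa-miR-98-5p, written without the prefix hsa below. They were chosen by name from the 1707 mature miRNAs that the files list, and all 9 were among the 562 that passed the filter on low counts. The measurement was miRNA-Seq of U87-MG, a long-established line of human glioblastoma cells, in 15 libraries that formed 5 groups of 3 replicates. Control cells, labelled WT, were cultured for 24 h in 21% O2 (normoxia) or in 1% O2 (hypoxia). Cells edited with CRISPR/Cas9 in HIF1A (HIF1α-KO), in EPAS1 (HIF2α-KO) or in both (HIF1α/HIF2α-KO, the double knockout) were cultured for 24 h in 1% O2 only. The sources do not say whether a knockout line is a single clone or whether the replicates came from separate cultures, so that the p-values measure the spread between these libraries. The assay counts no mRNA, so the loss of HIF1A and EPAS1 could not be checked in these libraries. The paper reports successful knockout of both by immunofluorescence staining, shown for primary glioblastoma cells, and its methods name staining or western blotting for this purpose. Because the libraries are bulk, a lower level in every cell and a lower level in a share of the cells cannot be told apart.

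MiRNAs of the let-7 family are made from hairpin precursors, from which Drosha and Dicer cut a short duplex, and the 5p strand is the guide that is usually kept in an Argonaute protein. The guide pairs through its seed with target mRNAs, among which RAS genes, HMGA2, MYC and LIN28 are well known, and lowers their output. The RNA-binding proteins LIN28A and LIN28B in turn hold back the maturation of let-7 precursors. The family is regarded as a group of differentiation-linked tumour suppressors, and HIF1α and HIF2α are the transcription factor subunits that cells accumulate when oxygen is low.

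The mature sequences, read from RefSeq (GRCh38.p14, 9 of 9 members matched), are shown because members that differ by few bases are hard to tell apart by sequencing, and because the results below group them by these differences. Each is written 5′ to 3′, with the seed (bases 2 to 8) in capitals.
let-7a-5p: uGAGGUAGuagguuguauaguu
let-7b-5p: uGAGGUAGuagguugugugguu
let-7c-5p: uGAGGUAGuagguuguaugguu
let-7d-5p: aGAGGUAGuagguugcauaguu
let-7e-5p: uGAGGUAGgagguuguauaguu
let-7f-5p: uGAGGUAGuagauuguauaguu
let-7g-5p: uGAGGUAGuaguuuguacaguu
let-7i-5p: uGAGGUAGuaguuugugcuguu
miR-98-5p: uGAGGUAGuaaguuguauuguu
All 9 strands were 22 bases long and shared the seed GAGGUAG. Counted from the 5′ end, let-7c-5p differed from let-7a-5p by A19G, let-7e-5p by U9G and let-7f-5p by G12A. The strand let-7b-5p differed from let-7a-5p by A17G and A19G, and let-7c-5p differed from let-7b-5p by G17A. The strands let-7g-5p and let-7i-5p both carried G12U and U18C against let-7a-5p, and differed from each other by A17G and A19U. The GC content was lowest in let-7f-5p and miR-98-5p, at 31.8%, and highest in let-7b-5p, at 45.5%. Of the other human miRNAs with this seed in RefSeq, miR-4500 reached at most 3 counts and was at 0 in 9 libraries, and miR-4458 was not analysed here.

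The 9 strands come from 12 loci (mature positions in GRCh38.p14, overlapping genes from GENCODE v29). The 3 copies of let-7a-5p lie at chr9:94175962-94175983 (plus strand), in an intron of a long noncoding RNA gene, at chr11:122146568-122146589 (minus strand), in an intron of MIR100HG, and at chr22:46112752-46112773 (plus strand), in an exon of MIRLET7BHG. The same exonic context holds let-7b-5p, at chr22:46113691-46113712. The chromosome 9 cluster also holds a let-7f-5p copy at chr9:94176353-94176374 and let-7d-5p at chr9:94178841-94178862, and its first pair of hairpins are 310 bases apart. The other let-7f-5p copy, at chrX:53557246-53557267, and miR-98-5p, at chrX:53556299-53556320, both lie on the minus strand in an intron of HUWE1, with 850 bases between their hairpins. The strand let-7c-5p lies at chr21:16539838-16539859 (plus strand), in an intron of MIR99AHG. The strand let-7e-5p lies at chr19:51692793-51692814 (plus strand), in an intron of SPACA6, and overlaps an exon of the antisense gene SPACA6P-AS. The strand let-7g-5p lies at chr3:52268336-52268357 (minus strand), in an intron of WDR82, and let-7i-5p lies at chr12:62603691-62603712 (plus strand), in an intron of a long noncoding RNA gene.

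The libraries held between 10360337 and 22496373 counts, and 3 counts, the floor used here for counting error, equalled at most 0.290 CPM, counts scaled to a common library total. The libraries fell apart along a first principal component, computed from 237 abundant miRNAs outside the family, that held 53.3% of their variance. Splitting it at its largest gap gave a lower set of 7 libraries (the 3 normoxic controls, hypoxic control replicate 1, HIF1α-KO replicate 3 and HIF2α-KO replicates 1 and 2) and an upper set of 8 libraries with all 3 HIF1α/HIF2α-KO libraries. HIF2α-KO replicate 2 lay nearest to the split, with a score of -0.80 between neighbours at -3.41 and 2.68. The labels give no batch that corresponds to these sets. Markers of the glioblastoma line (miR-21-5p, miR-10b-5p, miR-221-3p and miR-222-3p) summed to between 198117 and 301285 normalized CPM. The defining miRNAs of endothelium (miR-126-3p and miR-126-5p) summed to between 4.01 and 50.8 and the 6 of blood cells to between 4.54 and 24.1 normalized CPM. The 2 of stroma (miR-143-3p and miR-145-5p) summed to between 115 and 395 normalized CPM, and the 2 of neurons (miR-124-3p and miR-9-5p, the latter also known from glioma cells) to between 1830 and 9462. No marker in the files was at 0 in all libraries, and the liver marker miR-122-5p was not analysed here.

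The let-7 family took a large share of the miRNA reads in these cells. Its 9 members together held 17.2% to 29.4% of all counts of a library, that is 160 to 296 counts per 1000 after TMM scaling (normalized counts per 1000, written per 1000 below, with normalized CPM for the rarer strands). The strand let-7a-5p alone made up 36.6% to 40.9% of the family's counts, and let-7c-5p, let-7i-5p, let-7g-5p, let-7b-5p and let-7f-5p followed with mean shares of 13.9%, 13.6%, 12.2%, 11.5% and 8.68%. The remaining members were minor, with mean shares of 0.572% for let-7e-5p, 0.212% for let-7d-5p and 0.0884% for miR-98-5p. Even miR-98-5p, the least abundant member, had at least 1028 counts in every library, so that counting error was small beside the spread between replicates.

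**Figure D1:**
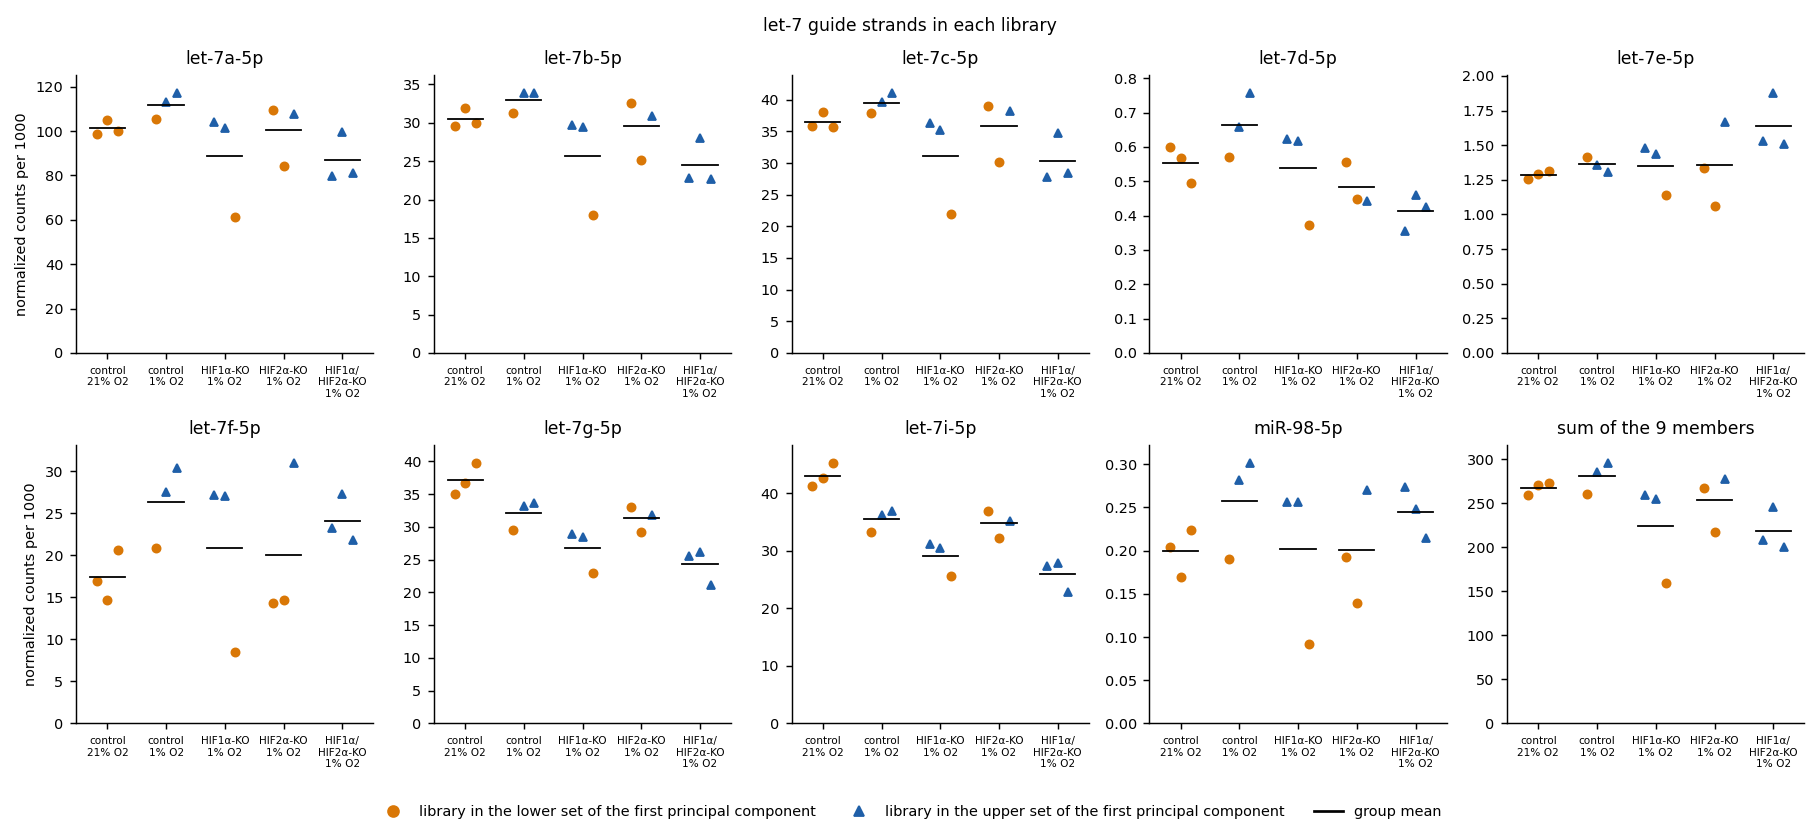
Level of each let-7 guide strand and of their sum (normalized counts per 1000, linear axes from 0) in the 15 libraries by group. Points are libraries, coloured and shaped by the principal component set, and lines are group means. The HIF1α/HIF2α-KO points of let-7i-5p lie between 22.9 and 27.9 per 1000, below all hypoxic control points, whereas let-7f-5p and miR-98-5p differ between the sets of libraries within a group.

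The summed level was 260, 286 and 296 normalized counts per 1000 in the hypoxic controls and 260, 271 and 273 per 1000 in the normoxic controls. It was 260, 254 and 160 per 1000 in HIF1α-KO cells, 268, 218 and 277 per 1000 in HIF2α-KO cells, and 209, 246 and 200 per 1000 in HIF1α/HIF2α-KO cells. The 3 double knockout libraries and the 3 HIF1α-KO libraries were all below the lowest hypoxic control, although HIF1α-KO replicate 1 lay next to that control at 260 per 1000, and HIF2α-KO libraries overlapped with the controls.

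In order, the group means of the sum were 281 ± 18.2 (SD, n = 3) per 1000 in hypoxic controls, 268 ± 7.40 in normoxic controls, 254 ± 32.0 in HIF2α-KO, 225 ± 56.3 in HIF1α-KO and 218 ± 24.4 in HIF1α/HIF2α-KO cells. Each pair of neighbours in this order overlapped and differed by less than the larger of their SDs. Against the hypoxic controls, the log2 ratio of the means was -0.36 in HIF1α/HIF2α-KO, -0.32 in HIF1α-KO and -0.14 in HIF2α-KO cells, and that of hypoxic over normoxic controls was 0.07 (0.02 to 0.11 when a library was left out). The HIF1α-KO value rested on replicate 3, since without it the ratio was -0.12. The HIF2α-KO value was -0.07 without replicate 2, -0.27 without replicate 3 and -0.09 without hypoxic control replicate 3. The 3 knockout comparisons share the hypoxic control libraries. No test was run on the sum.

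The question put to the HIF1α/HIF2α-KO cells was which miRNAs differ under hypoxia when both HIFα subunits are missing. Of the 9 members, let-7i-5p fell and the other 8 did not pass the test, with 4.63% of all tested miRNAs called lower in this comparison and 1.25% called higher. Over all 562 miRNAs, 7 were called higher and 26 lower, and with scaling to total counts alone 25 and 25. Members were lower in estimate in 8 of 9 cases, with a median log2 fold change of -0.38 against -0.02 over all tested miRNAs. The groups did not overlap for 6 members in the lower direction (16.7% of all tested miRNAs) and for let-7e-5p in the higher direction (13.7%).

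The strand let-7i-5p was at 33.2, 36.3 and 36.9 normalized counts per 1000 in hypoxic control replicates 1 to 3, and at 27.4, 27.9 and 22.9 per 1000 in HIF1α/HIF2α-KO replicates 1 to 3. All 3 double knockout libraries were below all 3 controls. The log2 fold change was -0.45 (SE 0.11, 95% interval -0.68 to -0.21), with an adjusted p = 0.0281 by edgeR's quasi-likelihood test with Benjamini-Hochberg adjustment over all tested miRNAs. Within the upper set of libraries, the 2 hypoxic controls were at 36.3 and 36.9 per 1000 and the 3 double knockout libraries lay between 22.9 and 27.9 per 1000. With the principal component sets as a covariate the log2 fold change was -0.49 and the edgeR adjusted p was 0.00879, and with the sets split by miR-126 these were -0.45 and 0.0369. The call was lost when any of the 3 hypoxic controls or HIF1α/HIF2α-KO replicate 1 or 3 was left out, with edgeR adjusted p between 0.0390 and 0.122 over the 6 leave-one-out fits. It was also lost in edgeR without the filter on low counts (adjusted p = 0.199) and with the libraries of these groups alone (adjusted p = 0.0612). In limma on quantile-normalized values the call was lost as well (adjusted p = 0.597). Quantile normalization sets a strand's value by its rank in the library, and whether this bears on the lost call was not tested.

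The strand let-7g-5p, which differs from let-7i-5p by 2 bases, had a similar estimate. It was at 29.6, 33.2 and 33.7 normalized counts per 1000 in the hypoxic controls and at 25.5, 26.1 and 21.2 per 1000 in HIF1α/HIF2α-KO cells, without overlap. The log2 fold change of -0.41 (95% interval -0.66 to -0.16) had an edgeR adjusted p of 0.0534, just above the threshold. The minor member let-7d-5p, which is processed from the chromosome 9 cluster, was at 570, 659 and 758 normalized CPM in the hypoxic controls and at 356, 459 and 425 in HIF1α/HIF2α-KO cells. These groups did not overlap either, and the log2 fold change of -0.68 (95% interval -1.09 to -0.27) had an edgeR adjusted p of 0.0528. With the principal component sets as a covariate, added after seeing the data, both passed, each with an edgeR adjusted p of 0.0163. Both passed in 0 of the 6 leave-one-out fits. There the edgeR adjusted p was 0.0806 to 0.171 for let-7g-5p and 0.0621 to 0.151 for let-7d-5p. Of the 11 other alternatives, this covariate included, let-7g-5p passed in 3 and let-7d-5p in 6.

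The abundant strands let-7a-5p, let-7b-5p and let-7c-5p had log2 fold changes of -0.37, -0.43 and -0.38 in HIF1α/HIF2α-KO cells, with edgeR adjusted p of 0.212, 0.123 and 0.168. Their double knockout libraries were below the hypoxic controls without overlap. For let-7a-5p the levels were 105, 113 and 117 normalized counts per 1000 in the controls and 79.8, 99.5 and 81.0 per 1000 in the double knockout. The strand let-7f-5p, at 20.9, 27.6 and 30.5 per 1000 in the controls and 23.2, 27.3 and 21.8 per 1000 in the double knockout, had a log2 fold change of -0.13 with a wide 95% interval of -0.93 to 0.68. The interval for miR-98-5p, around -0.07, ran from -0.78 to 0.64. Levels of both overlapped between these groups.

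The strand let-7e-5p had the only positive estimate. It was at 1417, 1356 and 1309 normalized CPM in the hypoxic controls and at 1533, 1879 and 1507 in HIF1α/HIF2α-KO cells. The groups did not overlap, but the log2 fold change of 0.27 (95% interval -0.06 to 0.60) had an edgeR adjusted p of 0.338. As a share of the family, let-7e-5p held 0.734% to 0.764% in the double knockout and 0.443% to 0.544% in the hypoxic controls. HIF1α-KO replicate 3 was close to the double knockout range, with 0.712%, against 0.563% and 0.568% in the other HIF1α-KO libraries.

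**Figure D2:**
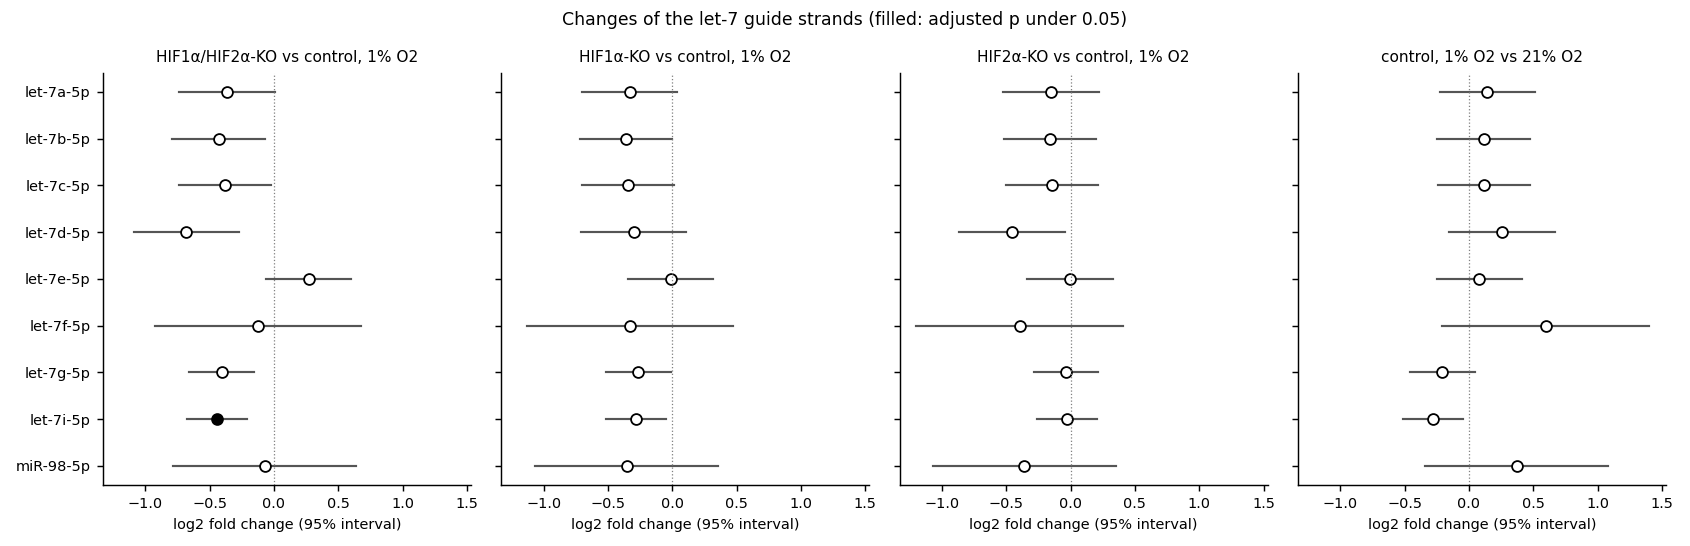
Log2 fold change of each let-7 guide strand with its 95% interval, from edgeR, in 4 comparisons. Filled points have an adjusted p under 0.05, which only let-7i-5p reached, at -0.45 in the HIF1α/HIF2α-KO comparison, and the intervals of let-7f-5p and miR-98-5p are the widest in each panel.

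HIF1α-KO cells were compared with hypoxic controls to ask which miRNAs differ when HIF1α alone is missing. No member was called by edgeR, DESeq2 or limma, while edgeR called 1.25% of the tested miRNAs lower and 0 higher (7 and 0 of 562, or 5 and 2 with scaling to total counts). An unadjusted edgeR p under 0.05 was reached by 3 members, all lower (6.23% of all tested miRNAs). All 9 estimates were negative, with a median log2 fold change of -0.33 against -0.05 over all tested miRNAs, and 5 members did not overlap in the lower direction (11.4% of all). The strand let-7i-5p was at 31.3, 30.6 and 25.6 normalized counts per 1000 in HIF1α-KO cells, below all hypoxic controls, with a log2 fold change of -0.28 and an edgeR adjusted p of 0.287. The strand let-7g-5p, at 28.99, 28.5 and 22.9 per 1000, was also below all controls, with a log2 fold change of -0.26 and an edgeR adjusted p of 0.381. For let-7a-5p, let-7b-5p and let-7c-5p the log2 fold changes were -0.33, -0.36 and -0.34, and the highest of their edgeR adjusted p was 0.463. These values rested in part on HIF1α-KO replicate 3. Its let-7a-5p level was 61.2 per 1000 against 104 and 101 per 1000 in the other HIF1α-KO replicates, and its let-7f-5p level was 8.49 per 1000 against 27.2 and 27.1 per 1000. Without this library the median over the members was -0.12, with 7 of 9 negative, and the log2 fold change was -0.12 for let-7a-5p, -0.19 for let-7i-5p and 0.05 for let-7f-5p, so that the sign for let-7f-5p turned.

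In HIF2α-KO cells, no member was called by edgeR, DESeq2 or limma, and edgeR called 0 of all tested miRNAs in either direction, that is 0%. An unadjusted edgeR p under 0.05 was reached by 1 member, let-7d-5p (6.76% of all tested miRNAs in the lower direction). All 9 estimates were negative, with a median log2 fold change of -0.15 against -0.01 over all tested miRNAs. The median over the members was -0.07, with 7 of 9 negative, without HIF2α-KO replicate 2, and -0.25 without HIF2α-KO replicate 3. With the principal component sets as a covariate it was -0.04, with 6 of 9 negative. Scaling to total counts alone moved the median of all miRNAs to -0.15 and that of the members to -0.29. The strand let-7d-5p was at 556, 449 and 443 normalized CPM, below all hypoxic controls, and was the only member without overlap (7.3% of all), with a log2 fold change of -0.46 (95% interval -0.87 to -0.05) and an edgeR adjusted p of 0.296. The paper lists let-7d-5p among the miRNAs that were lower in HIF2α-KO cells, in a list that gives no threshold or p-value. The strands let-7i-5p, at 37.0, 32.3 and 35.2 per 1000, and let-7g-5p, at 33.1, 29.2 and 31.9 per 1000, overlapped with the controls. Their log2 fold changes were -0.03 and -0.04, with 95% intervals of -0.26 to 0.21 and -0.29 to 0.21, and their sign turned in some alternatives. The replicates of let-7f-5p were far apart, at 14.3, 14.7 and 31.0 per 1000, and only the last of these libraries belonged to the upper set.

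The knockouts were also set against each other, to ask whether their effects on a member differ. No member was called by edgeR in HIF2α-KO against HIF1α-KO cells, where 0.89% of all tested miRNAs were called higher and 0.178% lower (5 and 1 of 562, but 2 and 10 with scaling to total counts, which moved the median of all from 0.05 to -0.13). In this comparison 1 member, let-7i-5p, had an unadjusted p under 0.05 (higher, as in 9.96% of all). Its log2 fold change was 0.26 with an edgeR adjusted p of 0.244. No member was called in HIF1α/HIF2α-KO against HIF1α-KO cells, where 1.42% of all were called lower and 0 higher, and 0 members had an unadjusted edgeR p under 0.05, against 8.72% of all in the lower and 6.23% in the higher direction. DESeq2 and limma called no member in either of these comparisons. Against HIF2α-KO cells, HIF1α/HIF2α-KO cells had log2 fold changes of -0.42 for let-7i-5p (edgeR adjusted p = 0.0760) and -0.37 for let-7g-5p (edgeR adjusted p = 0.1001), both without overlap (11.7% of all tested miRNAs in the lower direction). In this comparison edgeR called 0 members and 1.25% of all miRNAs lower and 0.534% higher (7 and 3 of 562, but 4 and 11 with scaling to total counts, which moved the median of all from -0.03 to 0.16). By the other criteria, 2 members had an unadjusted p under 0.05 (lower, as in 12.6% of all). The Wald test of DESeq2 called 1 member (12 lower and 7 higher over all 562) and limma 0 (7 lower and 4 higher over all). The interaction of the 2 knockouts was called for 0 members and for 0% of all miRNAs by edgeR, with 0 members at an unadjusted p under 0.05, against 6.76% of all miRNAs in the lower and 3.74% in the higher direction, and 0 called by DESeq2 or limma.

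Hypoxia itself was examined by comparing control cells in 1% O2 with those in 21% O2. No member was called by edgeR, DESeq2 or limma, and edgeR called 0 of all tested miRNAs, 0% in either direction. An unadjusted edgeR p under 0.05 was reached by 1 member, let-7i-5p, which was lower (3.02% of all). The strands let-7i-5p and let-7g-5p did not overlap in the lower direction (9.96% of all), and let-7a-5p and let-7f-5p in the higher direction (7.83% of all). For let-7a-5p the groups nearly touched, with the lowest hypoxic control at 105.4 and the highest normoxic control at 105.1 normalized counts per 1000. Its log2 fold change was 0.14, with an edgeR adjusted p of 0.841. The normoxic levels of let-7i-5p were 41.3, 42.6 and 45.3 normalized counts per 1000, above all hypoxic libraries of any genotype. The log2 fold change was -0.28 (95% interval -0.51 to -0.05), with an edgeR adjusted p of 0.701. Normoxic let-7g-5p levels were 35.1, 36.6 and 39.7 per 1000, and its log2 fold change was -0.21 with an edgeR adjusted p of 0.725.

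The group means of let-7i-5p thus ran from 43.1 ± 2.03 per 1000 in normoxic controls through 35.5 ± 1.95 in hypoxic controls, 34.8 ± 2.36 in HIF2α-KO and 29.2 ± 3.08 in HIF1α-KO to 26.0 ± 2.76 in HIF1α/HIF2α-KO cells (SD, n = 3 each). Hypoxic controls and HIF2α-KO cells overlapped and differed by less than the larger SD. HIF1α-KO and HIF1α/HIF2α-KO cells also overlapped, with means that differed by about the larger SD. The same order held for let-7g-5p, from 37.2 ± 2.36 per 1000 in normoxic controls to 24.3 ± 2.69 per 1000 in HIF1α/HIF2α-KO cells. All 3 normoxic libraries were in the lower set, and within that set only hypoxic control replicate 1 could be compared with them. It was at 33.2 per 1000 for let-7i-5p, below the normoxic range of 41.3 to 45.3 per 1000.

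For let-7f-5p the hypoxic controls were higher in estimate, with levels of 16.9, 14.7 and 20.6 normalized counts per 1000 in normoxia and a log2 fold change of 0.60 (95% interval -0.21 to 1.40, edgeR adjusted p = 0.791). Hypoxic control replicate 1, the only hypoxic control in the lower set, was at 20.9 per 1000, above the normoxic mean of 17.4 per 1000 and next to the highest normoxic library. With the principal component sets as a covariate the log2 fold change of let-7f-5p was -0.10 and that of miR-98-5p, which was 0.37 without it, was -0.26. The sets and the oxygen condition could not be told apart for the other hypoxic controls.

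Some members kept nearly fixed proportions over all libraries and others did not. Over the 15 libraries, the ratio of let-7a-5p to let-7c-5p counts was 2.82 with a coefficient of variation of 1.52%, and the ratios of let-7b-5p to let-7c-5p and of let-7a-5p to let-7b-5p varied by 1.84% and 2.58%. These strands come from different chromosomes, apart from the let-7b and let-7a-3 hairpins on chromosome 22, and differ from each other by at most 2 bases at positions 17 and 19. The ratio of let-7g-5p to let-7i-5p was 0.904 and varied by 2.95%, although these strands come from chromosomes 3 and 12. All other ratios of 2 members varied by at least 11.1%. The ratio of let-7a-5p to let-7c-5p ran from 2.76 to 2.80 in the lower set of libraries and from 2.82 to 2.88 in the upper set, without overlap.

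A pair outside the family shows how close such ratios can be in these files. The strands miR-99a-5p and miR-100-5p, which share let-7 primary transcripts on chromosomes 21 and 11, are printed because they differ by a single base, in capitals, at position 16 (U16A from miR-99a-5p to miR-100-5p, RefSeq, GRCh38.p14).
miR-99a-5p: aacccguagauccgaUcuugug
miR-100-5p: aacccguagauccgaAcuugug
Their counts had a ratio of 0.983 that varied by 0.155% over the 15 libraries. How reads that match several miRNAs were counted is not given in the sources used here. The split of reads between near-identical members is therefore uncertain, including between let-7a-5p, let-7b-5p and let-7c-5p and between let-7g-5p and let-7i-5p, and was not tested.

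**Figure D3:**
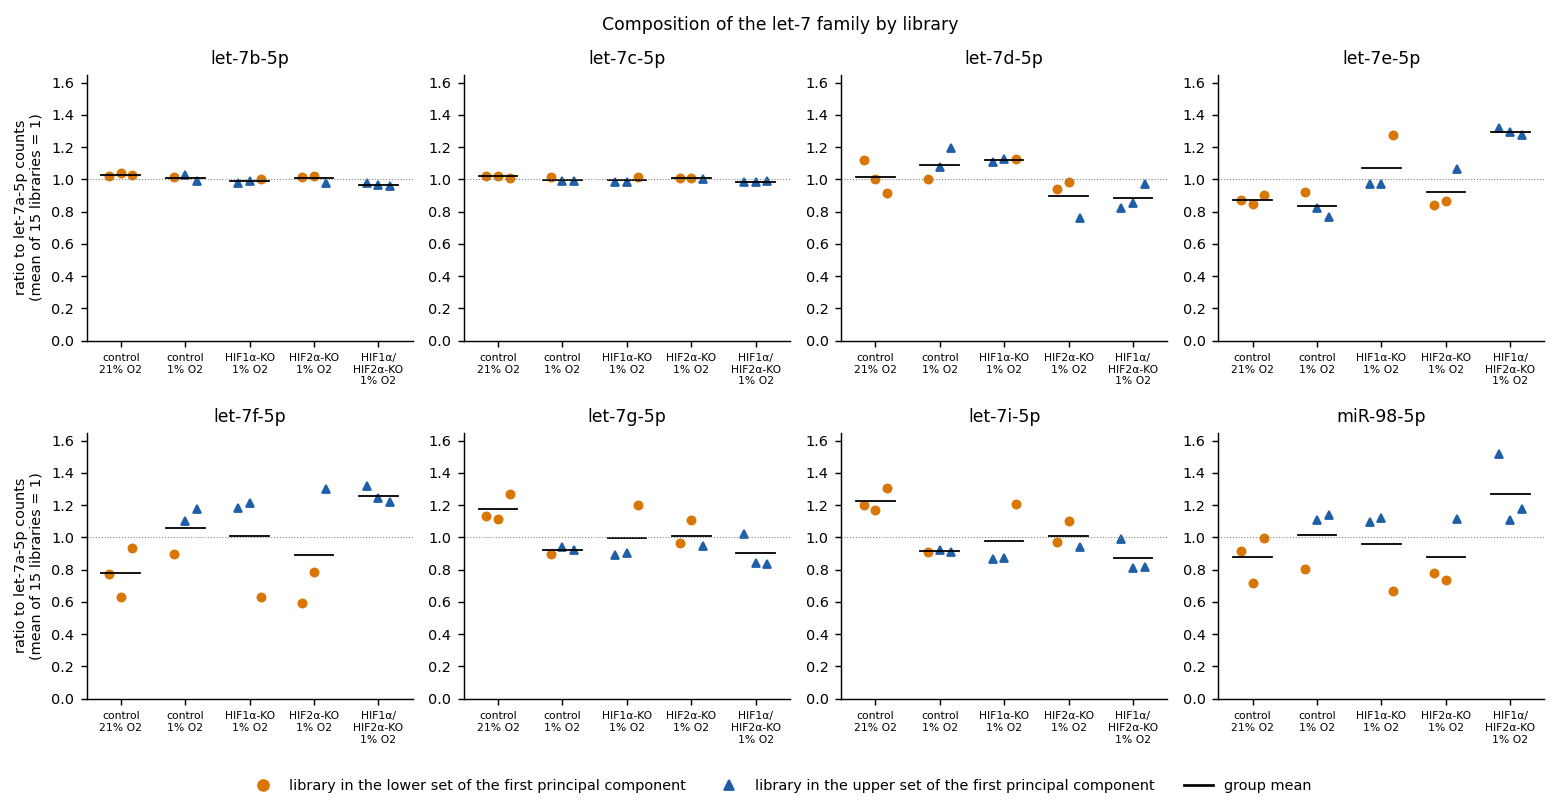
Counts of each of the other 8 members divided by those of let-7a-5p, scaled so that the mean of the 15 libraries is 1 (linear axes from 0), by group. Points are libraries, marked by principal component set, and lines are group means. The strands let-7b-5p and let-7c-5p stay close to 1 in all libraries, the ratio of let-7e-5p is high in the 3 HIF1α/HIF2α-KO libraries and, at the same height, in HIF1α-KO replicate 3, and let-7f-5p and miR-98-5p are higher in the upper set.

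The strands let-7f-5p and miR-98-5p, the members with the lowest GC content, followed the sets of libraries most closely. In the 3 groups that hold libraries of both sets (hypoxic control, HIF1α-KO and HIF2α-KO), the mean difference of log2 levels between the upper and the lower set was 1.08 for let-7f-5p (0.47 to 1.68 over the groups) and 0.94 for miR-98-5p (0.61 to 1.47). It was between 0.15 for let-7i-5p and 0.35 for let-7a-5p in the other 7 members. The sets were defined from other miRNAs of the same libraries, and these differences are a description without a test. Within the lower and the upper set, Pearson's r between let-7f-5p and miR-98-5p (log2 normalized CPM) was 0.903 over 7 libraries and 0.678 over 8 libraries.

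The 3p strands, the passenger strands of the same hairpins, were counted much less often for most members. Per 1000 reads of the 5p strand, the median over libraries was 189 reads for let-7d-3p, 19.7 for let-7e-3p, 3.90 for let-7b-3p, 3.40 for miR-98-3p, 0.457 for let-7c-3p, 0.256 for let-7i-3p and 0.0211 for let-7g-3p. All 11 3p strands listed passed the filter. In HIF1α/HIF2α-KO cells against hypoxic controls 1 of 11 fell and 0 rose, against 4.63% of all tested miRNAs called lower and 1.25% called higher. In HIF1α-KO cells 0 of 11 were called by edgeR and 3 were lower at an unadjusted p under 0.05, as were 6.23% of all. In HIF2α-KO cells these numbers were 0 and 2, against 6.76% of all lower at an unadjusted p under 0.05, and in hypoxic against normoxic controls 0 and 0, against 3.02% of all lower and 3.2% higher. The paper lists let-7b-3p and let-7i-3p as lower in HIF1α-KO cells and let-7f-1-3p as lower in HIF2α-KO cells, without a threshold in that list. In HIF1α-KO cells the log2 fold changes here were -0.55 for let-7b-3p and -0.66 for let-7i-3p (edgeR adjusted p = 0.287 and 0.381). In HIF2α-KO cells that of let-7f-1-3p was -1.13 (edgeR adjusted p = 0.269).

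The 3p strand that fell was let-7d-3p, partner of let-7d-5p. It was at 124, 116 and 119 normalized CPM in the hypoxic controls and at 95.9, 77.7 and 80.4 in HIF1α/HIF2α-KO cells, without overlap, with a log2 fold change of -0.50 (SE 0.13) and an edgeR adjusted p of 0.0394. The call was lost in all 6 fits that left out a replicate of these groups (edgeR adjusted p between 0.0501 and 0.131), with scaling to total counts (0.0558), without the filter (0.458), with only the libraries compared (0.0926), with the replicate block (0.0537) and in limma (0.0591). The strand let-7i-3p, partner of let-7i-5p, was at 13.2, 9.72 and 9.10 normalized CPM in the hypoxic controls and at 5.29, 3.33 and 7.30 in the double knockout. These groups did not overlap, and the log2 fold change of -1.01 (SE 0.29) had an edgeR adjusted p of 0.0534. Its counts were low, at 44 to 225 per library in these groups. Both strands of the let-7d and let-7i hairpins were thus lower in estimate in the double knockout. The same held for let-7b (log2 fold changes of -0.43 for 5p and -0.30 for 3p) and let-7c (-0.38 and -0.11). For let-7e, let-7g and miR-98 the estimates of the 5p and 3p strands had opposite signs.

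**Figure D4:**
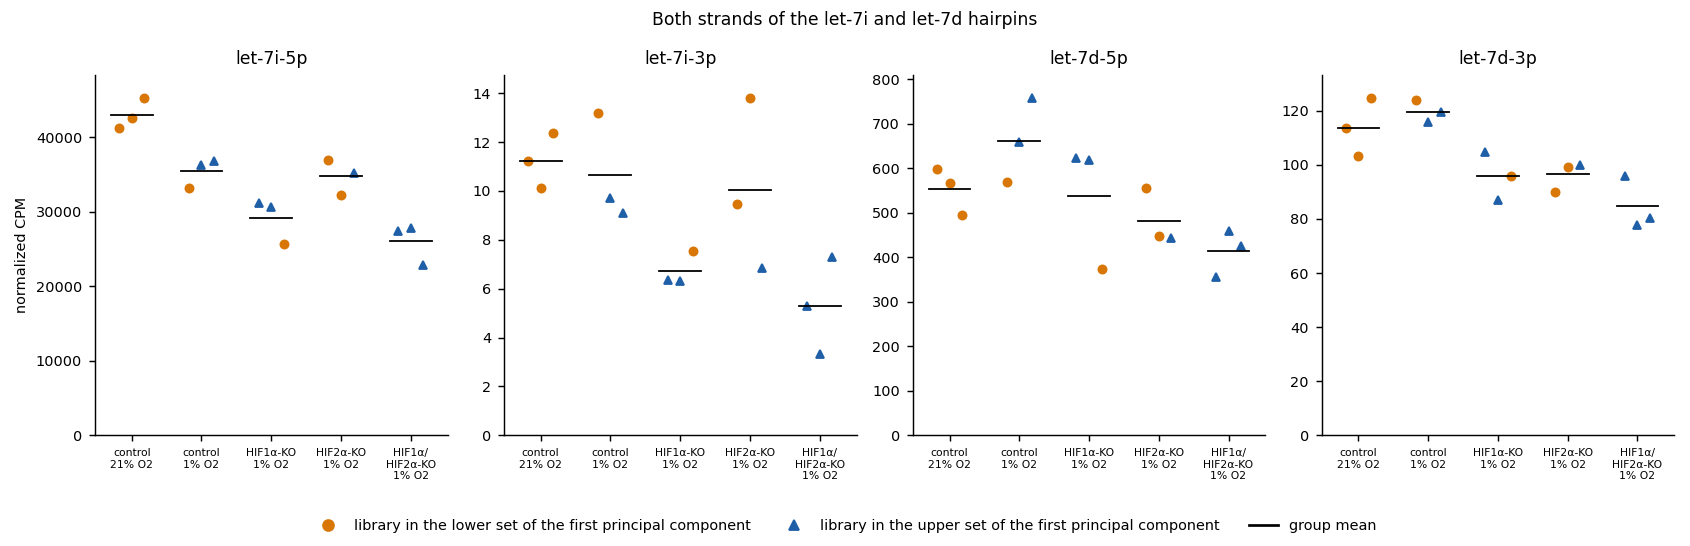
Levels of the guide (5p) and passenger (3p) strands of the let-7i and let-7d hairpins (normalized CPM, linear axes from 0) in the 15 libraries. Points are libraries, marked by principal component set, and lines are group means. For each of the 4 strands all HIF1α/HIF2α-KO points are below all hypoxic control points, as for let-7i-3p with 3.33 to 7.30 against 9.10 to 13.2.

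The 3p strand let-7a-3p, cut from the let-7a-1 and let-7a-3 hairpins, varied with let-7f-5p and with let-7a-5p. It ranged from 60.8 normalized CPM in HIF1α-KO replicate 3, also the library with the lowest let-7f-5p level, to 860 in a hypoxic control. Pearson's r between let-7a-3p and let-7f-5p was 0.962 within the lower set and 0.633 within the upper set of libraries, and between let-7a-3p and let-7a-5p 0.813 and 0.780 (7 and 8 libraries, log2 normalized CPM, a description without a test). The value was thus higher with let-7f-5p in the lower set and higher with let-7a-5p in the upper set. Over all 15 libraries, which mix the sets, it was 0.971 with let-7f-5p and 0.591 with let-7a-5p. Without the 2 libraries farthest from the median of the 5p strand, these values were 0.937 and 0.271.

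**Figure D5:**
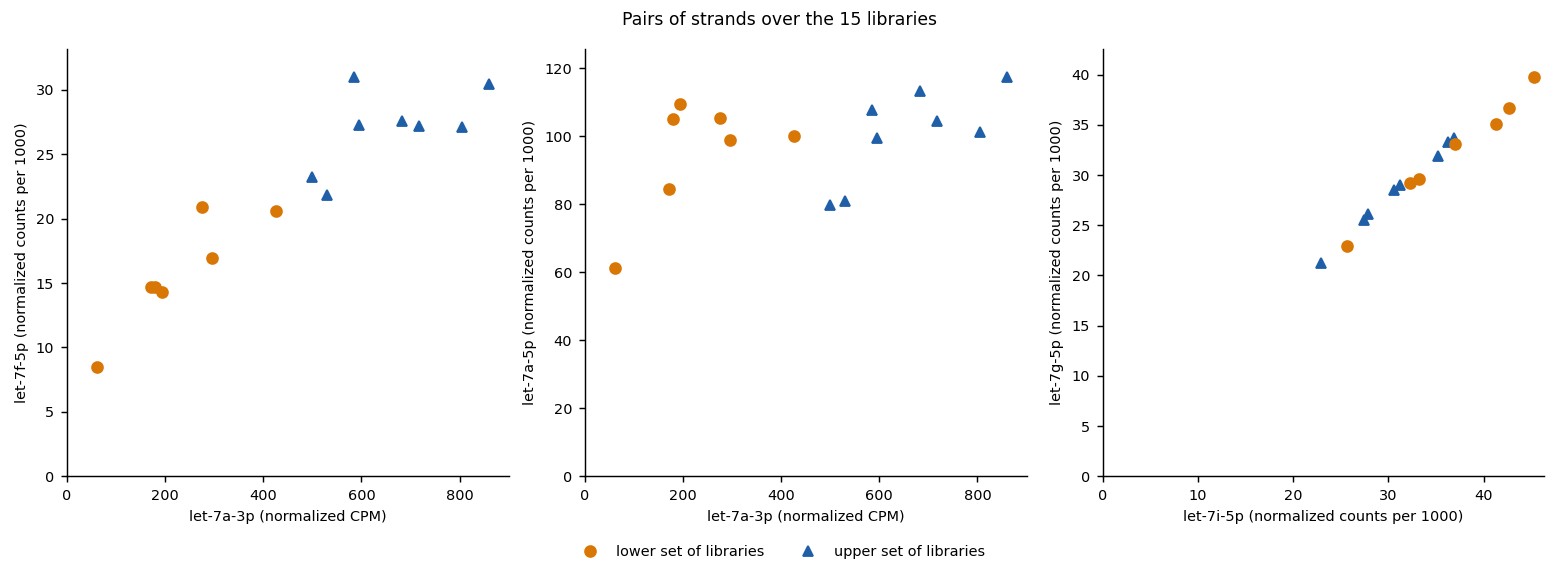
Levels of 3 pairs of strands in the 15 libraries, with let-7a-3p against let-7f-5p and let-7a-5p, and let-7i-5p against let-7g-5p (linear axes from 0, units on each axis). Points are libraries, marked by set. The let-7f-5p points rise with let-7a-3p from 8.49 per 1000 at 60.8 normalized CPM, the let-7a-5p points of the sets lie side by side, and the let-7g-5p and let-7i-5p points form a narrow line.

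MiRNAs made from the same primary transcripts as let-7 members, namely miR-99a, miR-99b, miR-100, miR-125a and miR-125b strands and the strands of miR-4763, were counted as cluster neighbours. Of 13 listed, 11 passed the filter, and none was called by edgeR in HIF1α-KO, HIF2α-KO or HIF1α/HIF2α-KO cells against hypoxic controls or in hypoxic against normoxic controls. An unadjusted p under 0.05 was reached by 1 of them in HIF1α-KO cells (higher, as in 5.69% of all tested miRNAs) and by 2 in HIF2α-KO cells (1 higher, as in 8.54% of all, and 1 lower, as in 6.76%). It was reached by 1 in HIF1α/HIF2α-KO cells (lower, as in 13.3% of all) and by 0 in hypoxic against normoxic controls (3.02% of all lower and 3.2% higher). The median log2 fold change of the 11 neighbours in HIF1α/HIF2α-KO cells was -0.08, against -0.38 for the 9 guide strands. In HIF1α/HIF2α-KO against HIF2α-KO cells 1 neighbour fell (1.25% of all miRNAs were called lower), miR-125b-5p, with a log2 fold change of -0.45 (SE 0.10) and an edgeR adjusted p of 0.0291. With scaling to total counts its log2 fold change was -0.26 (edgeR adjusted p = 0.148), and the call was lost when any library of these groups but HIF1α/HIF2α-KO replicate 3 was left out (edgeR adjusted p between 0.0391 and 0.135 over the 6 fits). It was also lost with TMM factors from miRNAs outside the family (0.0637), without the filter (0.357), with only the libraries compared (0.264), with the replicate block (0.0703), with the principal component sets as a covariate (0.0582) and in limma (0.443).

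Of the 237 tested miRNAs outside the family with a mean of at least 10 CPM, the levels most like the family's summed level over the 15 libraries were those of miR-196a-5p (Pearson's r = 0.856), miR-335-3p (0.832), let-7b-3p (0.790), miR-16-2-3p (0.788) and miR-105-5p (0.712). With the libraries farthest from the median of the sum left out, HIF1α-KO replicate 3 and HIF1α/HIF2α-KO replicate 3, these values were 0.771, 0.697, 0.565, 0.667 and 0.553. By the same measure over all tested miRNAs, the closest to let-7a-5p and let-7b-5p was let-7c-5p (0.996 and 0.995), and let-7g-5p and let-7i-5p were closest to each other (0.993). The closest to let-7f-5p was miR-26b-5p (0.977), to miR-98-5p let-7a-3p (0.956), to let-7d-5p miR-16-2-3p (0.905) and to let-7e-5p miR-26a-2-3p (0.815). These correlations are over libraries that share depth and the sets described above, and are given without a test.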

How the data were processed

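The authors deposited raw counts of reads per mature miRNA for each library, without normalization. Per the labels, HISAT2, StringTie and DESeq2 were used, without versions or roles, and the supplementary methods name a quantile normalization, which was not applied to these whole-number counts. The genome build and the handling of reads that match several miRNAs are not given in the sources used here. The members and lists were chosen with earlier results of these data known.

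Counts of 562 miRNAs kept by filterByExpr were fitted with edgeR 4.0.16 in R 4.3.3 (TMM factors, group means of all 15 libraries, quasi-likelihood test, Benjamini-Hochberg adjustment, threshold 0.05). The model was tested on simulated data with larger changes than those reported here and without sets of libraries. Its power for changes of the size seen here was not tested. Named were all 9 members, 3p strands and cluster neighbours that passed or whose 5p partner passed, the 5 miRNAs most like the sum, and the closest miRNA of each member. The strands let-7a-3p and miR-99a-5p with miR-100-5p were chosen after their values were seen. Intervals are 95%. No replicates were copies (lowest chi-square per degree of freedom 25.7). Alternatives were the size factors and the Wald test of DESeq2 1.42.0, total counts, TMM without the members, limma 3.58.1 on quantile-normalized log2(CPM + 1), other filters, only the libraries compared, a replicate block, covariates for sets of libraries, and leaving out each replicate. The principal component sets were added after seeing the data.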

Additional observations from a re-analysis of the deposited data

How the results depend on the processing

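The count of members called in HIF1α/HIF2α-KO cells against hypoxic controls was 1, with 26 lower and 7 higher over all 562 miRNAs. It became 2 with DESeq2 size factors (27 lower and 9 higher over all) and 3 with the Wald test of DESeq2 (37 and 23). With at least 10 counts in every library it was 3 (39 and 17 of 405). With the principal component sets as a covariate it was 5 (let-7b-5p, let-7c-5p, let-7d-5p, let-7g-5p and let-7i-5p, all lower, with 38 and 15 over all). It was 0 with limma on quantile-normalized values (25 and 13 over all) and 0 to 1 when a replicate was left out. The let-7i-5p call was also lost without the filter and with only the libraries compared. Over the 11 alternatives that kept all replicates, let-7i-5p passed in 8, let-7d-5p in 6 and let-7g-5p in 3. The strands let-7b-5p and let-7c-5p passed in 1 each. In hypoxic against normoxic controls 1 member (let-7f-5p, higher) was called without a filter, in place of 0, with 13 higher and 2 lower of all 1707. In HIF1α/HIF2α-KO against HIF2α-KO cells 1 (let-7i-5p, lower) was called with the Wald test of DESeq2 (12 lower and 7 higher over all). With the principal component sets 1 was called (7 lower and 1 higher over all), in place of 0. In the other comparisons the count stayed at 0 in all alternatives run. The log2 ratio of the sum in hypoxic over normoxic controls was -0.0418 within the lower set. Quantile normalization, which sets values by rank within a library, gave let-7a-5p exactly the same value in every group. The cause of the differences between settings was not tested.

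Signs turned mostly for log2 fold changes near 0. In HIF1α-KO cells let-7e-5p was 0.0043 with DESeq2 size factors, 0.0044 with DESeq2, 0.0281 with total counts, 0.0333 without a filter and 0.0435 with only the libraries compared. In HIF2α-KO cells let-7e-5p was 0.0041 with DESeq2 size factors and with DESeq2, 0.0019 with only the libraries compared and 0.0547 with the principal component sets, let-7g-5p was 0.0852 in limma and 0.0271 with these sets, and let-7i-5p was 0.0405 and 0.0245. In HIF1α/HIF2α-KO cells let-7f-5p was 0.21 in limma and 0.0046 with the miR-126 sets, and miR-98-5p was 0.0481 with the latter. With the principal component sets, hypoxic against normoxic controls had -0.0783 for let-7a-5p, -0.0857 for let-7b-5p, -0.0864 for let-7c-5p, -0.0742 for let-7e-5p, -0.10 for let-7f-5p and -0.26 for miR-98-5p. With a replicate left out, the HIF1α-KO values ran from -0.0404 to 0.103 for let-7e-5p and from -0.548 to 0.0499 for let-7f-5p. The HIF2α-KO values ran from -0.240 to 0.122 for let-7e-5p, from -0.109 to 0.0131 for let-7g-5p and from -0.0959 to 0.0176 for let-7i-5p, and the HIF1α/HIF2α-KO values from -0.243 to 0.0185 for let-7f-5p and from -0.227 to 0.0772 for miR-98-5p. Of all log2 fold changes of members under alternatives in these 4 comparisons, 557 kept sign and side of the threshold, 8 fell short of it, 12 newly passed and 35 turned sign.

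Same-numbered replicates did not consistently deviate together. Their 21 correlations ran from -0.62 to 0.58, and 6 were over 0.1. The deviations come from 3 libraries per group, which in some groups also differ by set, so they cannot decide whether the numbers pair the libraries. With the replicate block, 1 member was called in HIF1α/HIF2α-KO cells against hypoxic controls (let-7i-5p, log2 fold change -0.45, edgeR adjusted p = 0.0451) and 0 in the other comparisons.

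Depth did not limit the members, of which the rarest had at least 1028 counts, but let-7i-3p had as few as 44. The alternatives for let-7d-3p and miR-125b-5p were added after seeing the data. For let-7f-5p in hypoxic against normoxic controls the edgeR adjusted p was 0.791, and 0.0137 without a filter, with log2 fold changes of 0.60 and 0.63.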
